A study of Mus musculus with 12 samples.

Results

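Afp, H19, Gpc3, Cd24a and Tnfrsf12a are genes known to be active in fetal liver or in liver tumors and low in resting adult liver. They were read here in hepatocyte-enriched preparations from regenerating mouse liver. The 5 genes were taken by symbol from a deposited table of 18227 genes, and all 5 were among the 15294 genes that had enough counts to be tested. RNA was sequenced with a poly A protocol in 12 libraries, 3 in each of 4 groups. The groups are anti-Gr1 at post-operative day 2 (POD2), anti-Gr1 at POD1, isotype at POD2 and isotype at POD1. All mice were male, WT and of strain BALB/C, with no substrain named, and were 8 weeks old. Antibody, either anti-Gr1 or its isotype, was injected into the peritoneum as 200 µg in 100 µl of PBS, followed by a second dose together with removal of 70% of the liver. The remnant liver was digested with collagenase and hepatocytes were enriched by slow centrifugation without sorting. The antibody was given to deplete granulocytic myeloid-derived suppressor cells, and the question was what their loss does to hepatocytes that regenerate. Separate animals are not stated as the source of the libraries, so p-values cover the spread between these samples alone, and that spread may be technical.

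Oncofetal genes are transcribed in the fetal liver, shut down around birth and switched on again in hepatocellular carcinoma and, for some of them, in injured or regenerating liver. Afp encodes alpha-fetoprotein, the main serum protein of the fetus and the fetal relative of albumin. H19 is an imprinted non-coding RNA that is the host of a microRNA and is also abundant in fetal and regenerating skeletal muscle. Gpc3 encodes glypican-3, a heparan sulfate proteoglycan held on the cell surface by a lipid anchor. Cd24a encodes a small anchored sialoglycoprotein of progenitor cells and bile ducts that is also carried by neutrophils, B cells and red cell precursors. Tnfrsf12a encodes Fn14, the receptor of the cytokine TWEAK, and is known as an early gene of liver regeneration. In mice the factor Zhx2 is known to repress Afp, H19 and Gpc3 in the adult liver, and Zbtb20 is known to repress Afp after birth. The substrain BALB/cJ is known to carry a Zhx2 allele that leaves Afp raised in the adult, and since no substrain is named here, whether this bears on the Afp and Zhx2 levels cannot be told.

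Total counts per library lay between 13189392 and 15822043. Levels are CPM after TMM scaling (edgeR), with scaling factors of 0.602 to 1.28. The 17 hepatocyte markers all had counts in every library, and their summed level was 41310 to 53710 CPM among libraries labelled anti-Gr1 POD2, 5665, 7816 and 54660 CPM in those labelled anti-Gr1 POD1, 147600 to 152600 CPM in isotype POD2 and 12490 to 23850 CPM in isotype POD1. These markers held 0.562% to 12.2% of the counts of a library, and 19 pancreatic acinar genes held 0.012% to 25.3%. Acinar genes held 25.3% in isotype POD2 replicate 3 and 21.1% in the library labelled anti-Gr1 POD1 replicate 1. Hepatocyte markers held 9.18% and 0.562% in these libraries. Levels of a gene are thus those of the whole preparation, not of hepatocytes alone. Ly6g, the gene of the main antigen of the antibody, had levels of 24.2 to 54.9 CPM over the 6 libraries labelled anti-Gr1. It had 0.247 to 1.98 CPM over the 6 isotype libraries. Ly6g RNA was thus higher where its cells were to be depleted, which goes against the label; the wording "labelled anti-Gr1" is used throughout, and every direction rests on the labels. In 3 cases a pair of libraries was near-identical. Their chi-square per gene, which is about 1 for sampling noise alone, was 1.62 for isotype POD2 replicates 1 and 2, 5.28 for replicates 1 and 2 labelled anti-Gr1 POD2, and 3.51 for the replicates 3 labelled anti-Gr1 POD2 and anti-Gr1 POD1, which carry different days. The other 63 pairs lay at 58.3 or above. Means and SDs take such a pair of 1 group as 1 sample, which gives n = 2 at POD2 and n = 3 at POD1. Unless pairs are summed, the edgeR tests count each library of a pair as its own sample. Their SEs and p-values therefore do not rest on the n printed beside them, and may be too small. Results are also given with these pairs summed, with the cross-day pair left out, or with both changes. With both changes the libraries labelled anti-Gr1 POD2 came down to 1 summed library, which is assumed to vary like the other groups.

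The promoters of the 3 genes whose antibody or day comparison passed the test are shown with that of Alb, the adult neighbour of Afp, because the 4 starts differ in the letters that stand there. Each window holds 250 bases before and 50 bases after the start in RefSeq annotation of GRCm38.p6, read 5′ to 3′ on the gene's strand; promoters of H19 and Cd24a are not shown. The windows are chr5:90490464-90490763 (plus strand) for Afp, chr5:90460620-90460919 (plus) for Alb, chr17:23677400-23677699 (minus) for Tnfrsf12a and chrX:52613925-52614224 (minus) for Gpc3. Capitals mark matches to the motifs listed after them.
Afp: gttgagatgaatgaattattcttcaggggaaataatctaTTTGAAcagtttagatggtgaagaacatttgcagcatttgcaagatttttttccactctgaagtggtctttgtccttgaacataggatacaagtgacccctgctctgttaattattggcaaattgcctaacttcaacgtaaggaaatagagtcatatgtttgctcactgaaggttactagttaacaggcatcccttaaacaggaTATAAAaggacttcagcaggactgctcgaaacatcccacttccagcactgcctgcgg
Alb: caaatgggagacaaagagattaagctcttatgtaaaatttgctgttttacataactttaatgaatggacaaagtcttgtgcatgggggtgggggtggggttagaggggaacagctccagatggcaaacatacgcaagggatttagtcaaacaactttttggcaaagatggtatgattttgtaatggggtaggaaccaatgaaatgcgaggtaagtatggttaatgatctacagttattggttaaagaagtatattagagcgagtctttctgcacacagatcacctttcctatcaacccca
Tnfrsf12a: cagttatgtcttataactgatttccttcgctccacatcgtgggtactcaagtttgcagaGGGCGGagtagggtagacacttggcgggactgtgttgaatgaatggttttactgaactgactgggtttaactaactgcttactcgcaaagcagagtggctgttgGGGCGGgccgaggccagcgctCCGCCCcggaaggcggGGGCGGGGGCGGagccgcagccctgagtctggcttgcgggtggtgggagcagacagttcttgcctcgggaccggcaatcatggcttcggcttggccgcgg
Gpc3: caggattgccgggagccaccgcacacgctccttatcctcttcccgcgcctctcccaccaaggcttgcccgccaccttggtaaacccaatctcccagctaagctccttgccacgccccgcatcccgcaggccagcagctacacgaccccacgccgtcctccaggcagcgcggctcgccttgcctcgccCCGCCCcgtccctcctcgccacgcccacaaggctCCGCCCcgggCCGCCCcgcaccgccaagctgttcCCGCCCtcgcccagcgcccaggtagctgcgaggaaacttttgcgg

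A TATA box (TATAAA, gene strand, 8.32% of the 32851 promoters of the table) and a CHR element (TTTGAA, both strands, 17.9%) matched once each in Afp, 7 to 2 and 211 to 206 bases before the start, and not in the other 3 windows. The GC box GGGCGG, on both strands and held by 35.7% of promoters, matched 5 times in Tnfrsf12a and 4 times in Gpc3, and not in Afp or Alb. G and C made up 40% of the Afp and Alb windows, 59.7% of Tnfrsf12a and 70.7% of Gpc3, against a median of 52.7% over all promoters. The letters of an AP-1 site (TGANTCA, 7.81% of promoters), a TEAD site (GGAATG, 14.7%) and an E2F site (TTTNGCGC, 1.38%), all on both strands, are in none of the 4 windows. Different motifs did not overlap in these windows. The GENCODE starts of these genes lie some bases away from the RefSeq starts used here. For Afp the GENCODE start, 90490737, lies downstream of the RefSeq start. The TATA box and the CHR element of Afp therefore lie further before the GENCODE start than the distances printed. A match is a description of letters only.

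Counts were tested with edgeR's quasi-likelihood test, with Benjamini-Hochberg adjusted p-values over the 15294 genes and a threshold of 0.05. Between antibodies at POD2, Gpc3 was higher and Afp and Tnfrsf12a were lower among libraries labelled anti-Gr1, 3 of the 5 genes, where 41.9% of all genes tested passed. The same comparison at POD1 called 0 of the 5 by edgeR, where 3.43% of all genes passed; 1 of the 5, Gpc3, had an unadjusted p under 0.05, and DESeq2 called 0. The difference between the antibody effects of POD2 and POD1 passed for Afp and Gpc3, with 16.6% of all genes. From POD1 to POD2 under isotype, Afp was higher and Gpc3 lower at POD2, with 46.4% of all genes passing. Among libraries labelled anti-Gr1 the same step called 0 of the 5 and 0% of all genes by edgeR, although 2352 genes had an unadjusted p under 0.05. That last comparison has the cross-day pair on both of its sides, and without it 16.4% of genes passed, Gpc3 among them. The comparisons at POD2 and of isotype days share the isotype POD2 libraries. In both, the share called among the 5 genes is near that of all genes, so the counts say nothing particular about the 5.

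By direction, 2.25% of all genes were higher and 1.18% lower between antibodies at POD1, and 8.88% had a more positive and 7.72% a more negative antibody effect at POD2. Without the cross-day pair 14.7% of genes passed at POD1, 40.4% at POD2, 12.9% for the difference between days and 48.7% between isotype days. With near-identical pairs summed the shares were 0.735%, 25.3%, 5.6% and 32.3% in the same order, and 0% between days among libraries labelled anti-Gr1. With both changes they were 4.87%, 10.1%, 0.467% and 33.4%, and 3.35% between days among libraries labelled anti-Gr1. Groups did not overlap for 1 of the 5 genes at POD1, Gpc3, against 19.7% of all genes (9.66% higher, 10% lower). At POD2 Afp, Gpc3 and Tnfrsf12a did not overlap between antibodies, against 65.1% (30.6% higher, 34.5% lower). The same 3 genes did not overlap between isotype days, against 64.4% (33% higher, 31.4% lower), and 0 of the 5 did between days among libraries labelled anti-Gr1, against 15.5% (6.89% higher, 8.6% lower).

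**Figure D1:**
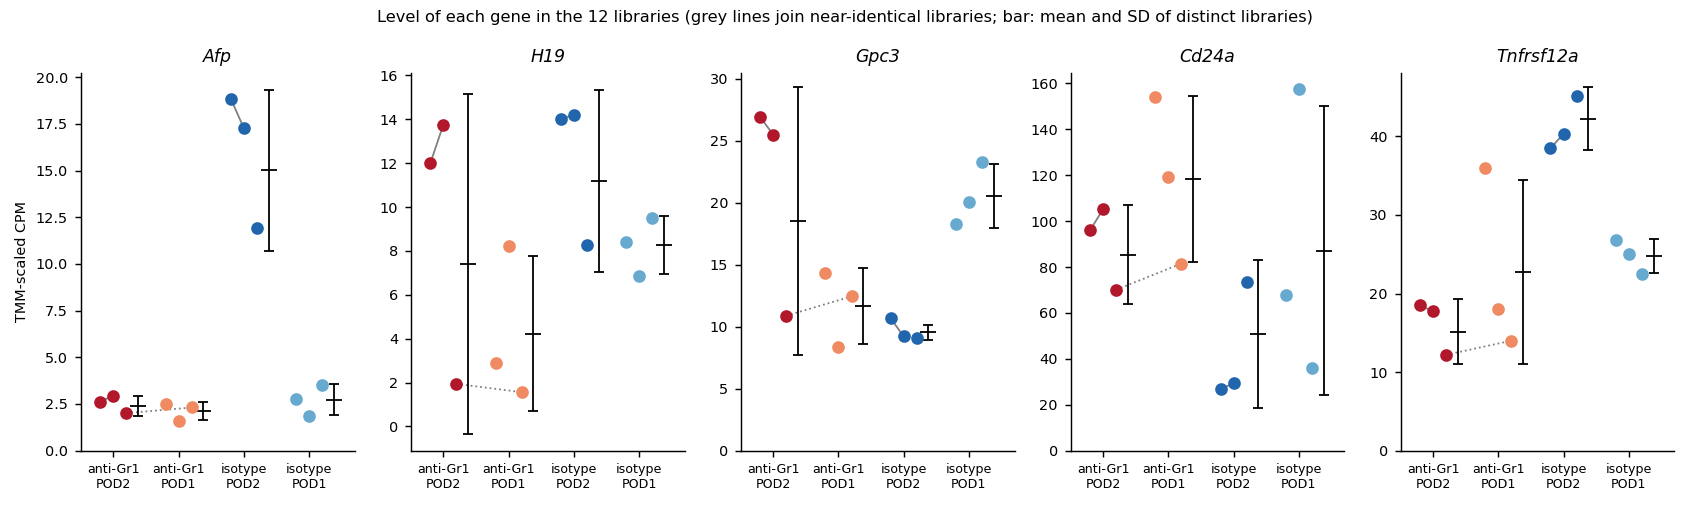
Level of Afp, H19, Gpc3, Cd24a and Tnfrsf12a (y axis, TMM-scaled CPM) in each of the 12 libraries, by group (x axis). Points are libraries, solid grey lines join near-identical libraries of a group, dotted lines join the cross-day pair, and black bars are the mean and SD of distinct libraries; the isotype POD2 points of Afp (11.9 to 18.9 CPM) lie above all other Afp points, which reach 3.53 CPM.

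Afp, a protein-coding gene (ENSMUSG00000054932, GRCm38 chromosome 5, 90490737 to 90508907, plus strand), was high in isotype POD2 alone. It had 2.63, 2.95 and 2.01 CPM among libraries labelled anti-Gr1 POD2, 2.48, 1.61 and 2.31 CPM in those labelled anti-Gr1 POD1, 18.9, 17.3 and 11.9 CPM in isotype POD2, and 2.75, 1.87 and 3.53 CPM in isotype POD1. The 3 isotype POD2 libraries were high and the other 9 were low and overlapped each other across groups. Means were 2.40 ± 0.551 CPM (SD, n = 2), 2.13 ± 0.464 CPM (n = 3), 15.0 ± 4.32 CPM (n = 2) and 2.72 ± 0.831 CPM (n = 3) in the same order of groups. Afp was close to the floor outside isotype POD2, with 27 to 59 counts per library there and 97 to 210 counts in isotype POD2.

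At POD2 Afp was 6.33-fold lower among libraries labelled anti-Gr1 than in isotype, with a log2 fold change of -2.66 ± 0.29 (SE, edgeR adjusted p = 9.3e-05). At POD1 the log2 difference was -0.36 ± 0.29 (adjusted p = 0.509), and the 2 antibody effects differed by -2.30 ± 0.40 (edgeR adjusted p = 0.00548). Under isotype Afp was 5.87-fold higher at POD2 than at POD1, with a log2 fold change of 2.55 ± 0.29 (edgeR adjusted p = 0.000102). Among libraries labelled anti-Gr1 the step between days was 0.25 ± 0.29 (edgeR adjusted p = 0.66). The POD2 antibody difference and the isotype day difference passed under each of the 3 ways of treating near-identical libraries, with log2 changes of -2.43 (edgeR adjusted p = 0.0315) and 2.48 (adjusted p = 0.00221) under both changes together. The difference between the antibody effects was -2.01 ± 0.62 and no longer passed under both changes (edgeR adjusted p = 0.174). An antisense gene, Gm43449, overlaps Afp and had 0.0518 to 0.693 CPM. No source used here gives the strand setting of the counting, so sense and antisense reads cannot be told apart.

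Alb, Afm and Gc, the other genes of the albumin family, are the adult counterparts of Afp and lie on the same chromosome. Under isotype all 3 were higher at POD2 than at POD1, Alb with a log2 fold change of 4.19 ± 1.09 (edgeR adjusted p = 0.00968), Afm with 4.60 ± 1.19 (adjusted p = 0.0102) and Gc with 3.15 ± 0.87 (adjusted p = 0.0129). Between antibodies at POD2 none of the 3 passed; Alb gave -2.66 ± 1.01 (edgeR adjusted p = 0.0553), the same size of log2 difference as Afp, and -2.76 (adjusted p = 0.000706) without the cross-day pair. Alb had 11400, 11920 and 13880 CPM among libraries labelled anti-Gr1 POD2, 526, 1205 and 14110 CPM in those labelled anti-Gr1 POD1, 77960, 77880 and 79640 CPM in isotype POD2, and 3545 to 5270 CPM in isotype POD1. The ratio of Afp to Alb therefore behaved unlike Afp. Per 10000 Alb counts there were 2.31, 2.47 and 1.45 Afp counts among libraries labelled anti-Gr1 POD2, 47.1, 13.3 and 1.64 in those labelled anti-Gr1 POD1, 2.42, 2.22 and 1.501 in isotype POD2, and 6.67, 5.28 and 6.70 in isotype POD1. The POD2 ranges of the antibodies overlapped on this ratio, and all 3 isotype POD1 libraries lay above all isotype POD2 libraries. In bulk RNA, fewer cells of a type and less RNA per cell cannot be told apart; the part of the hepatocyte share in the Afp difference was not tested.

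**Figure D2:**
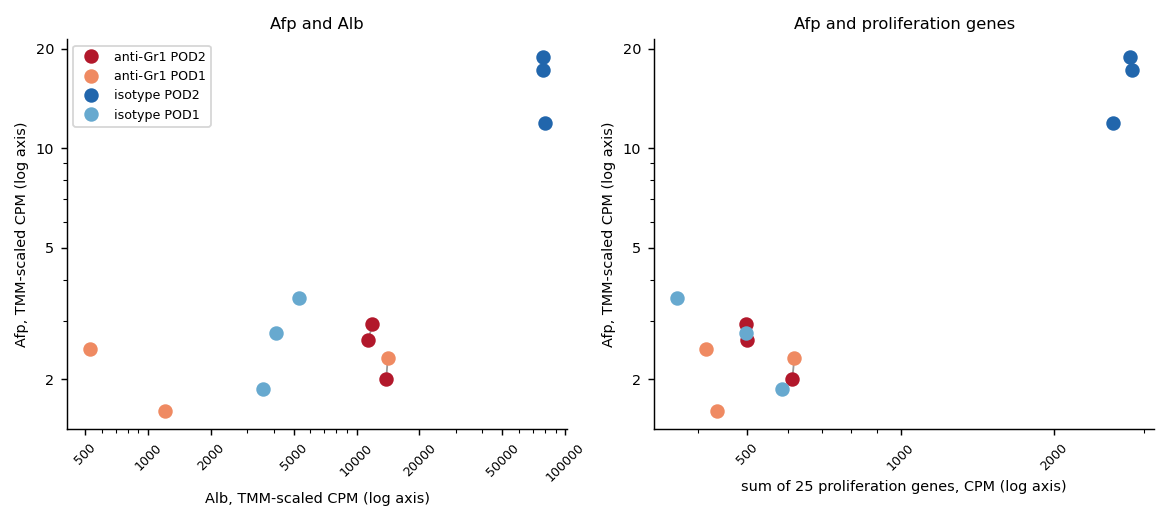
Afp (y axis, TMM-scaled CPM, log axis) in the 12 libraries against Alb (left, TMM-scaled CPM, log axis) and against the summed level of 25 proliferation genes (right, CPM, log axis). Colors are groups and grey lines join near-identical libraries; the isotype POD2 libraries lie apart at Alb levels of 77880 to 79640 CPM and proliferation sums of 2613 to 2841 CPM.

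Regulators of Afp were read as a list of 16 transcription factors. Zhx2, the repressor, had 18.0, 17.6 and 20.0 CPM among libraries labelled anti-Gr1 POD2, 13.6, 14.1 and 18.7 CPM in those labelled anti-Gr1 POD1, 27.3, 28.5 and 25.1 CPM in isotype POD2 and 23.6, 23.6 and 20.4 CPM in isotype POD1. It was lower among libraries labelled anti-Gr1 at POD2, by a log2 difference of -0.54 ± 0.14 (edgeR adjusted p = 0.0105); the call was lost with near-identical pairs summed (adjusted p = 0.199) and without scaling (adjusted p = 0.735). Zbtb20, the other known repressor of Afp, was higher at POD2 than at POD1 under isotype by 2.03 ± 0.42 (edgeR adjusted p = 0.00312) and lower among libraries labelled anti-Gr1 at POD2 by -1.27 ± 0.41 (adjusted p = 0.0297; 0.171 with pairs summed). Zhx1, a relative of Zhx2, went the other way, with -0.60 ± 0.15 (adjusted p = 0.00754) and 0.56 ± 0.15 (adjusted p = 0.0122) in the edgeR comparisons of isotype days and of antibodies at POD2. Of the 16 factors, 1 was higher and 6 were lower among libraries labelled anti-Gr1 at POD2, with a median log2 difference of -0.64 beside -0.01 over all genes, of which 20.8% were higher and 21.1% lower. Under isotype 6 were higher and 2 lower at POD2, with a median of 0.84 beside 0.03 over all genes, of which 23% were higher and 23.4% lower. Taking both directions together, the shares called are near the 41.9% and 46.4% of all genes. Both splits depend on the scaling: without scaling factors they were 2 higher and 0 lower between antibodies, and 1 higher and 4 lower between isotype days.

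H19 (ENSMUSG00000000031, a long intergenic non-coding RNA, GRCm38 chromosome 7, 142575529 to 142578143, minus strand) did not pass in any of the 5 comparisons. It had 11.99, 13.8 and 1.94 CPM among libraries labelled anti-Gr1 POD2, 2.90, 8.23 and 1.56 CPM in those labelled anti-Gr1 POD1, 14.0, 14.2 and 8.26 CPM in isotype POD2, and 8.42, 6.86 and 9.52 CPM in isotype POD1. The spread was widest among libraries labelled anti-Gr1, where the near-identical cross-day pair held the lowest values of all. Means were 7.41 ± 7.73 CPM (SD, n = 2), 4.23 ± 3.53 CPM (n = 3), 11.2 ± 4.13 CPM (n = 2) and 8.27 ± 1.34 CPM (n = 3) in that order of groups, and neighbours in the order of means overlapped throughout. The antibody difference was -0.40 ± 0.66 at POD2 (edgeR adjusted p = 0.647) and -0.95 ± 0.67 at POD1 (adjusted p = 0.453). The POD1 value was -1.89 without replicate 2 labelled anti-Gr1 POD1 and -0.55 without replicate 3 of that group. At POD2 its sign turned without the cross-day pair (0.07 ± 0.38, edgeR adjusted p = 0.894). The isotype day difference of 0.56 ± 0.66 (adjusted p = 0.509) turned to -0.10 without scaling factors.

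H19 was lowest in the libraries with the least skeletal muscle RNA. The 5 genes most like it, by Pearson correlation of log2 CPM over 9 distinct libraries and among 12083 genes, were Atp2a1 (0.936), Tnnt3 (0.916), Ckm (0.914), Mylpf (0.913) and Acta1 (0.901), which encode a calcium pump, a troponin, creatine kinase, a myosin light chain and actin of skeletal muscle. A list of 17 skeletal muscle genes, chosen after this likeness was seen, summed to 91.0, 92.1 and 8.04 CPM among libraries labelled anti-Gr1 POD2, 18.9, 128 and 7.63 CPM in those labelled anti-Gr1 POD1, 103, 94.7 and 98.2 CPM in isotype POD2, and 100.5, 66.6 and 159 CPM in isotype POD1. The 3 libraries with the lowest H19 were the 3 with the lowest muscle sum. The near-identical cross-day pair is among these 3, so they are not 3 distinct samples. Among the other libraries H19 did not rise steadily with the sum. Isotype POD1 replicate 2 had the least of both, 66.6 CPM of muscle genes and 6.86 CPM of H19. The highest muscle sum, 159 CPM, came with 9.52 CPM of H19, and 94.7 CPM came with 14.2 CPM. The list was chosen after the likeness and holds Acta1, so the match of the 3 lowest libraries was partly set by the choice. It is not separate evidence. In the cross-day pair 9 and 7 of the 17 muscle genes had no count, Acta1 among them, which allows up to 0.208 and 0.188 CPM at 3 counts (counting error only). The part of muscle RNA in the level of H19 was not tested.

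A further 14 imprinted growth genes were tested beside H19. Between antibodies at POD2, 5 of them were higher and 0 lower among libraries labelled anti-Gr1, with a median log2 difference of 0.49 beside -0.01 over all genes, where 20.8% of all genes were higher and 21.1% lower. Dcn, which encodes the matrix proteoglycan decorin, had 724 ± 83.4 CPM against 272 ± 59.4 CPM in isotype POD2 (SD, n = 2 each; log2 1.38 ± 0.23, edgeR adjusted p = 0.000966), and Sgce, a sarcoglycan gene, and Mest were also higher. Under isotype 3 were higher and 4 lower at POD2 than at POD1, Igf2r, which encodes the receptor that clears IGF2, by 1.21 ± 0.19 (edgeR adjusted p = 0.000684) and Sgce by -1.37 ± 0.19 (adjusted p = 0.000299). Without scaling factors 8 were higher and 0 lower between antibodies at POD2, and 0 were higher and 7 lower between isotype days. Dlk1, an imprinted gene of fetal hepatoblasts, stood at 0.139 to 1.63 CPM and passed in no comparison. Igf2, the neighbour of H19, is not among the symbols of the deposited table and could not be tested.

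Gpc3 (ENSMUSG00000055653, protein coding, GRCm38 chromosome X, 52272426 to 52613950, minus strand) was higher among libraries labelled anti-Gr1 at POD2, and its antibody effect differed between the days. It had 26.9, 25.5 and 10.9 CPM among libraries labelled anti-Gr1 POD2, 14.3, 8.34 and 12.4 CPM in those labelled anti-Gr1 POD1, 10.7, 9.21 and 9.12 CPM in isotype POD2, and 18.2, 20.0 and 23.3 CPM in isotype POD1. At both days the antibody groups did not overlap, though at POD2 the gap between the lowest library labelled anti-Gr1 and the highest isotype library was only from 10.9 to 10.7 CPM. Means were 18.5 ± 10.8 CPM (SD, n = 2), 11.7 ± 3.05 CPM (n = 3), 9.53 ± 0.583 CPM (n = 2) and 20.5 ± 2.56 CPM (n = 3) in that order of groups, and neighbours in the order of means overlapped.

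The antibody difference of Gpc3 at POD2 was 1.12 ± 0.31 on the log2 scale (edgeR adjusted p = 0.0144), 2.18-fold higher among libraries labelled anti-Gr1. With near-identical pairs summed it was 1.08 ± 0.40 (edgeR adjusted p = 0.0789), and without either of the near-identical replicates 1 and 2 labelled anti-Gr1 POD2 it was 0.93 (adjusted p = 0.0559) or 0.96 (adjusted p = 0.0544). It passed with the cross-day pair left out (1.43 ± 0.22, edgeR adjusted p = 0.00103) and with both changes (1.45 ± 0.33, adjusted p = 0.036). At POD1 Gpc3 gave -0.81 ± 0.30 (edgeR adjusted p = 0.164) and passed without the cross-day pair (-0.86 ± 0.22, adjusted p = 0.0297), not with pairs summed (adjusted p = 0.265) or with both changes (adjusted p = 0.0994). The antibody effects of the days differed by 1.94 ± 0.44 (edgeR adjusted p = 0.0151; 0.0662 with pairs summed and 0.072 with both changes). Under isotype Gpc3 was 2.12-fold lower at POD2 than at POD1, with a log2 change of -1.08 ± 0.31 (edgeR adjusted p = 0.0155), which missed the threshold without isotype POD2 replicate 2 (-1.04, adjusted p = 0.0508). Among libraries labelled anti-Gr1 the day difference was 0.85 ± 0.30 (edgeR adjusted p = 0.288) and 1.21 ± 0.24 (adjusted p = 0.0093) without the cross-day pair, but missed the threshold with pairs summed (adjusted p = 0.72) and with both changes (adjusted p = 0.106).

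The genes most like Gpc3 over the 9 distinct libraries were Ogn (0.982) and Ecm2 (0.974), which encode small leucine-rich proteins of the extracellular matrix, then Slc6a4 (0.944), Gabra3 (0.921) and Evc2 (0.921). Ogn had 28.8, 29.1 and 10.3 CPM among libraries labelled anti-Gr1 POD2, 15.1, 6.01 and 11.6 CPM in those labelled anti-Gr1 POD1, 6.10, 8.59 and 6.53 CPM in isotype POD2 and 19.6, 17.3 and 22.6 CPM in isotype POD1. The 13 markers of stellate cells and fibroblasts summed to 2843, 2744 and 1973 CPM among libraries labelled anti-Gr1 POD2, 1384, 1632 and 1927 CPM in those labelled anti-Gr1 POD1, 2039, 2028 and 1680 CPM in isotype POD2, and 2836, 2389 and 2606 CPM in isotype POD1. Every isotype POD1 library and the 2 near-identical libraries labelled anti-Gr1 POD2 were high for Gpc3, for Ogn and for the marker sum. The part of these cells in the Gpc3 result was not tested. Glypicans, syndecans and heparan sulfate enzymes gave 17 tested genes. Of these, 3 were higher and 1 lower among libraries labelled anti-Gr1 at POD2, with a median log2 difference of 0.06. Of all genes, 20.8% were higher and 21.1% lower there, with a median of -0.01. Under isotype 6 of the 17 were higher and 3 lower at POD2 than at POD1, with a median of 0.12. Of all genes, 23% were higher and 23.4% lower between isotype days, with a median of 0.03. Without scaling factors 1 was higher and 6 were lower between isotype days, with a median of -0.57 beside -0.66 over all genes, and 5 were higher and 0 lower between antibodies. With scaling, Sdc1, the main syndecan of hepatocytes, was higher at POD2 than at POD1 under isotype by 2.61 ± 0.56 (edgeR adjusted p = 0.00393). Sdc3 was lower by -1.72 ± 0.33 in the same isotype comparison (edgeR adjusted p = 0.00203). Gpc4, another glypican, was higher by 1.52 ± 0.37 (edgeR adjusted p = 0.00775), the opposite direction to Gpc3, with 56.0 ± 1.27 CPM in isotype POD2 and 19.5 ± 3.51 CPM in isotype POD1 (SD, n = 2 and 3).

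Cd24a (ENSMUSG00000047139, protein coding, GRCm38 chromosome 10, 43578284 to 43584265, plus strand) passed in none of the 5 comparisons with all 12 libraries. It had 96.1, 105 and 70.2 CPM among libraries labelled anti-Gr1 POD2, 154, 119 and 81.5 CPM in those labelled anti-Gr1 POD1, 26.7, 29.5 and 73.7 CPM in isotype POD2, and 68.0, 158 and 35.9 CPM in isotype POD1. All 4 groups overlapped their neighbours in the order of means. Means were 85.4 ± 21.6 CPM (SD, n = 2), 118 ± 36.3 CPM (n = 3), 50.9 ± 32.3 CPM (n = 2) and 87.1 ± 63.0 CPM (n = 3) in that order of groups. The antibody difference was 1.07 ± 0.53 at POD2 (edgeR adjusted p = 0.131) and 0.44 ± 0.53 at POD1 (adjusted p = 0.668). Without isotype POD2 replicate 3 the POD2 difference was 1.81 ± 0.54 (edgeR adjusted p = 0.0323), but isotype POD2 is then the near-identical replicates 1 and 2 alone, 1 distinct sample counted as 2, so this p is too small. The isotype day difference was -1.01 ± 0.53 (edgeR adjusted p = 0.143), and -1.71 (adjusted p = 0.0357) without that same library, with the same limit. Leaving out 1 library moved the POD1 antibody difference to 1.19 without isotype POD1 replicate 2 and to 0.070 without isotype POD1 replicate 3. Without scaling factors both passed, at 1.61 (edgeR adjusted p = 0.0142) and -1.75 (adjusted p = 0.00649).

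Marker sums of several cell types were read beside Cd24a. Acinar and erythroid sums varied between single libraries, and neutrophil sums differed between the antibody labels. In each of the 4 groups the library with the most Cd24a was also the one with the highest sum of 19 pancreatic acinar genes: 121300 CPM in the library labelled anti-Gr1 POD2 replicate 2, 212200 CPM in the library labelled anti-Gr1 POD1 replicate 1, 421000 CPM in isotype POD2 replicate 3 and 81050 CPM in isotype POD1 replicate 2. Acinar sums elsewhere reached as low as 96.4 CPM, in isotype POD1 replicate 3, the lowest Cd24a of its group. The relation was not general, since the library labelled anti-Gr1 POD1 replicate 2 had 119 CPM of Cd24a at an acinar sum of 1229 CPM. Isotype POD1 replicate 2 also had the highest erythroid sum, 13530 CPM over 8 genes, against 1375 and 2830 CPM in the rest of its group and 96.5 to 361 CPM in the other 9 libraries. The 14 neutrophil markers summed to 3469 to 4978 CPM among libraries labelled anti-Gr1 POD2 and 5442 to 9838 CPM in those labelled anti-Gr1 POD1, against 61.9 to 154 CPM in isotype POD2 and 696 to 902 CPM in isotype POD1. The 11 cholangiocyte markers summed to 365.6 to 649.5 CPM over all libraries. The parts of acinar, erythroid, neutrophil and cholangiocyte RNA in the level of Cd24a were not tested. The closest genes to Cd24a over the 9 distinct libraries were Rpia (0.959), Rbm38 (0.914), Metap2 (0.902) and Clk3 (0.896).

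**Figure D3:**
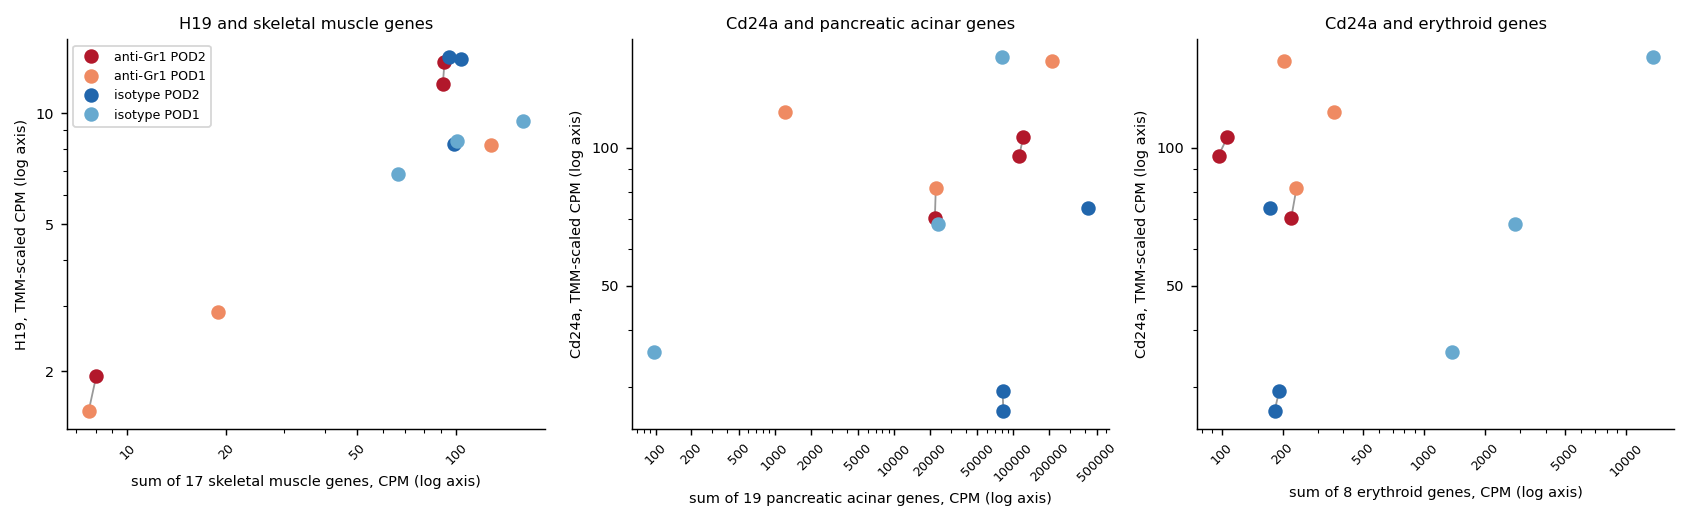
H19 against the sum of 17 skeletal muscle genes (left), and Cd24a against the sums of 19 pancreatic acinar genes (middle) and 8 erythroid genes (right), all in CPM on log axes, in the 12 libraries. Colors are groups and grey lines join near-identical libraries. The 3 libraries with a muscle sum of 18.9 CPM or less hold the 3 lowest H19 levels, up to 2.90 CPM. They include the near-identical cross-day pair. The muscle genes were chosen after their likeness to H19 was seen, so this match was partly set by the choice.

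Receptors and partners of CD24 were 6 genes. Between antibodies at POD2, 3 were higher and 1 lower among libraries labelled anti-Gr1, with a median of 1.16 on the log2 scale. Of all genes, 20.8% were higher and 21.1% lower in that comparison, with a median of -0.01. Fgr, a myeloid kinase of the Src family, was higher by 2.85 ± 0.37 (edgeR adjusted p = 0.000276), Lyn by 1.47 ± 0.22 (adjusted p = 0.000506) and Src by 0.81 ± 0.21 (adjusted p = 0.00969), and Hmgb1, a nuclear protein that CD24 binds, was lower by -0.69 ± 0.13 (adjusted p = 0.00217). Siglecg, the mouse receptor of CD24 on B cells, stood at 0.718 to 7.48 CPM and did not pass between antibodies at either day; its antibody effects differed between days by 2.50 ± 0.76 (edgeR adjusted p = 0.0457). B and plasma cell markers were highest in isotype POD1, with 912 to 1444 CPM over 11 genes.

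Tnfrsf12a (ENSMUSG00000023905, protein coding, GRCm38 chromosome 17, 23675445 to 23677468, minus strand) was lower among libraries labelled anti-Gr1 at POD2. It had 18.5, 17.7 and 12.2 CPM among libraries labelled anti-Gr1 POD2, 36.0, 18.1 and 14.0 CPM in those labelled anti-Gr1 POD1, 38.5, 40.3 and 45.1 CPM in isotype POD2, and 26.8, 25.0 and 22.5 CPM in isotype POD1. After TMM scaling the isotype POD2 libraries lay above all others. The library labelled anti-Gr1 POD1 replicate 1 lay apart from the rest of its group. In raw counts that library (509) and isotype POD1 replicate 1 (496) lay above the isotype POD2 libraries (429, 460 and 366). Means were 15.2 ± 4.19 CPM (SD, n = 2), 22.7 ± 11.7 CPM (n = 3), 42.3 ± 4.02 CPM (n = 2) and 24.8 ± 2.14 CPM (n = 3) in that order of groups, and only the step from isotype POD2 to isotype POD1, its neighbour in the order of means, had no overlap. At POD2 the antibody difference was -1.35 ± 0.30 on the log2 scale (edgeR adjusted p = 0.00459), 2.56-fold lower among libraries labelled anti-Gr1; it passed with pairs summed (adjusted p = 0.037) and without the cross-day pair (adjusted p = 0.00521), and not with both changes (-1.22, adjusted p = 0.0872). At POD1 it was -0.13 ± 0.29 (edgeR adjusted p = 0.84), with a sign that turned to 0.13 without the cross-day pair. The antibody effects of the days differed by -1.23 ± 0.42 (edgeR adjusted p = 0.068; 0.0357 without the cross-day pair, 0.177 with pairs summed and 0.219 with both changes).

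Under isotype the 3 POD2 libraries lay above the 3 POD1 libraries for Tnfrsf12a after TMM scaling. The groups of 64.4% of all genes did not overlap in that comparison. Raw counts of Tnfrsf12a did overlap, with 429, 460 and 366 in isotype POD2 and 496, 361 and 376 in isotype POD1. The separation depends on the scaling factors, which were 0.602 to 0.823 in isotype POD2 and 1.095 to 1.285 in isotype POD1. With scaling, the log2 difference between isotype days was 0.74 ± 0.29 (edgeR adjusted p = 0.0606). It passed without the cross-day pair (0.74 ± 0.22, edgeR adjusted p = 0.018), which is in neither group but shares in the estimate of the spread. It missed the threshold with pairs summed (edgeR adjusted p = 0.157) and with both changes (adjusted p = 0.064). The genes most like Tnfrsf12a over the 9 distinct libraries were Prps1 (0.981), Klhdc3 (0.973), Kars (0.965) and Txnl1 (0.964), which encode, among others, an enzyme of nucleotide synthesis and the lysyl-tRNA synthetase. Afp and Tnfrsf12a had a correlation of 0.72 and Afp and Cd24a one of -0.69 over those libraries, which share preparation and composition; the other pairs of the 5 genes lay between -0.41 and 0.44.

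The ligand of Fn14 did not follow its receptor. Tnfsf12, which encodes TWEAK, was 25.8 ± 5.52 CPM among libraries labelled anti-Gr1 POD2 and 25.5 ± 0.410 CPM in isotype POD2 (SD, n = 2 each; log2 -0.05 ± 0.18, edgeR adjusted p = 0.852). Under isotype it was 25.5 ± 0.410 CPM at POD2 (n = 2) and 36.5 ± 3.79 CPM at POD1 (n = 3), a log2 difference of -0.52 ± 0.18 (edgeR adjusted p = 0.0377; 0.0652 with pairs summed). Of 18 genes of the TWEAK-Fn14 pathway, 6 were higher and 2 lower among libraries labelled anti-Gr1 at POD2, with a median of 0.44, and 1 was higher and 9 lower at POD2 than at POD1 under isotype, with a median of -0.58. The shares called in either direction are near the 41.9% and 46.4% of all genes in these comparisons. Those higher between antibodies were Birc3, an inhibitor of apoptosis (2.00 ± 0.30, edgeR adjusted p = 0.00059), the NF-kB subunit genes Relb (1.39 ± 0.23, adjusted p = 0.00104), Nfkb2 and Nfkb1, the kinase Map3k14 and the adaptor Traf1, and those lower were Ikbkg and Traf2. The count of 8 fell to 5 with pairs summed and to 1 with both changes, and without scaling factors it was 9 higher and 0 lower, with 0 higher and 14 lower between isotype days.

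**Figure D4:**
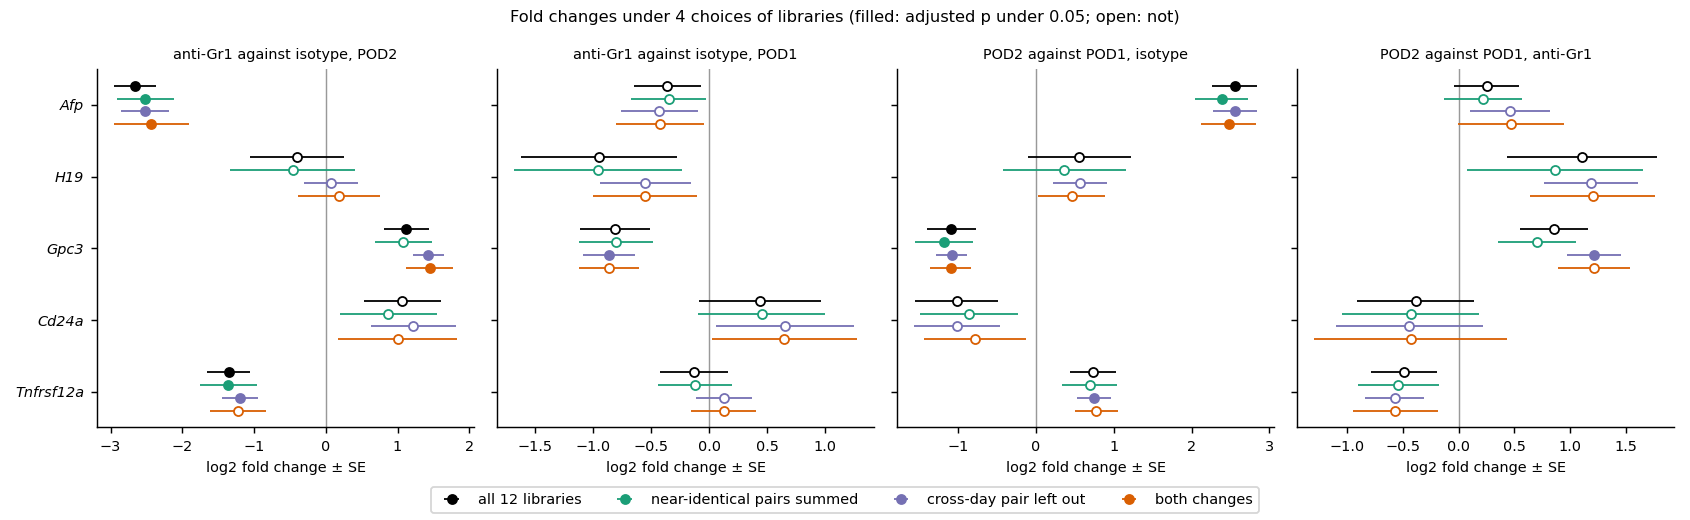
Log2 fold change (x axis, bars are SE) of each of the 5 genes (y axis) in the antibody comparisons at POD2 and POD1 and the day comparisons under isotype and among libraries labelled anti-Gr1. Colors are 4 choices of libraries, and filled points have an adjusted p under 0.05; the Afp points of the antibody comparison at POD2 and of the isotype days are filled under all 4 choices, at -2.66 and 2.55 with all 12 libraries.

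Levels between the 5 genes were compared per kilobase of exon. Cd24a stood highest among libraries labelled anti-Gr1 POD2, at 33.1 ± 8.37 CPM per kb, followed by Tnfrsf12a (7.85 ± 2.17), Gpc3 (6.89 ± 4.02), H19 (3.01 ± 3.14) and Afp (0.713 ± 0.164, SD, n = 2). In isotype POD2 Tnfrsf12a (21.9 ± 2.08 CPM per kb) and Cd24a (19.7 ± 12.5) did not differ beyond their spread, nor did H19 (4.54 ± 1.68), Afp (4.46 ± 1.28) and Gpc3 (3.54 ± 0.217). At POD1 Afp was the lowest of the 5 in both antibodies, at 0.633 ± 0.138 CPM per kb among libraries labelled anti-Gr1 and 0.807 ± 0.247 in isotype (n = 3 each). Alb, per kilobase, was at 5454 ± 671 CPM among libraries labelled anti-Gr1 POD2 and at 33640 ± 520 CPM in isotype POD2 (n = 2 each).

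Other oncofetal and progenitor genes were read as a list. Of 21 tested, 10 were higher and 0 lower among libraries labelled anti-Gr1 at POD2, with a median log2 difference of 0.77. Of all genes, 20.8% were higher and 21.1% lower there, with a median of -0.01. Under isotype 0 of the 21 were higher and 9 lower at POD2 than at POD1, with a median of -0.74. Of all genes, 23% were higher and 23.4% lower between isotype days, with a median of 0.03. Taking both directions together, the shares called are near the 41.9% and 46.4% of all genes. Lin28a, a fetal RNA-binding protein that blocks let-7 microRNAs, had 2.74 ± 0.831 CPM among libraries labelled anti-Gr1 and 0.0444 ± 0.0627 CPM in isotype at POD2 (SD, n = 2 each; edgeR adjusted p = 3.68e-05), with 1, 1 and 0 counts in the isotype libraries, too few for a fold change. It was higher at POD1 too, by 4.14 ± 0.35 on the log2 scale (edgeR adjusted p = 0.000202). The size of that change rests on few counts, 5, 3 and 4 in isotype POD1. Libraries labelled anti-Gr1 POD1 had 63, 90 and 64 counts. Lpl, the gene of lipoprotein lipase, which the adult hepatocyte silences, had 531 ± 178 CPM against 91.0 ± 0.256 CPM in isotype POD2 (log2 2.43 ± 0.24, edgeR adjusted p = 5.45e-05). The glycolytic genes Pkm, Hk2 and Aldoa were higher between antibodies and lower between isotype days, as was Igf2bp2, a fetal binder of Igf2 mRNA. Krt7, a duct keratin, was the gene of the list that was lower at POD1 among libraries labelled anti-Gr1 (-1.50 ± 0.28, edgeR adjusted p = 0.0204). The count of 10 fell to 6 with pairs summed and 4 with both changes.

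Markers of immune and endothelial cells moved in these comparisons too. The 11 Kupffer cell and macrophage markers summed to 4968 to 7383 CPM among libraries labelled anti-Gr1 POD2, 7594 to 12330 CPM in those labelled anti-Gr1 POD1, 1532 to 2205 CPM in isotype POD2 and 6613 to 10240 CPM in isotype POD1. The 8 monocyte markers summed to 1128 to 1357 CPM, 1436 to 2362 CPM, 223 to 337 CPM and 1093 to 1475 CPM in that order of groups, and the 12 sinusoidal endothelial markers to 4283 to 6917 CPM, 5453 to 7559 CPM, 1818 to 2414 CPM and 7246 to 8590 CPM. All of these markers had counts in every library, and isotype POD2 was the lowest group in each sum, as it was for the neutrophil markers given above. Their part in the oncofetal, TWEAK-Fn14, YAP and immediate early lists was not tested.

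Genes of growth responses were read in the same comparisons. Of 25 proliferation genes 0 were higher and 24 lower among libraries labelled anti-Gr1 at POD2 (median -2.70), and 23 were higher and 0 lower at POD2 under isotype (median 3.29), the directions of Afp. Cdc20, an activator of the anaphase-promoting complex, had 12.8 ± 2.74 CPM among libraries labelled anti-Gr1 POD2 and 289 ± 15.8 CPM in isotype POD2 (SD, n = 2 each; log2 -4.60 ± 0.27, edgeR adjusted p = 5.21e-06). Spc25, a kinetochore gene, and Rtel1, a helicase gene of DNA repair, were among the 5 genes most like Afp (Zer1 0.992, Rtel1 0.987, H1fx 0.986, Mfn1 0.984, Spc25 0.983), and Spc25 had 102 ± 5.26 CPM in isotype POD2 and at most 13.1 CPM in any library of the other groups. Of 21 YAP targets tested, 10 were higher, 0 lower and 11 not called between antibodies (median 0.75), and 0 were higher, 8 lower and 13 not called between isotype days (median -0.46), beside 20.8% higher and 21.1% lower, and 23% higher and 23.4% lower, of all genes. Axl, a receptor kinase, and Lats2, a kinase of the Hippo pathway, were higher by 1.67 ± 0.25 (edgeR adjusted p = 0.000534) and 1.26 ± 0.16 (adjusted p = 0.00021). Of 18 immediate early genes, 6 were higher and 0 lower between antibodies (median 0.70), and 0 were higher and 8 lower between isotype days (median -0.90). The shares of all genes given for the YAP targets apply to the proliferation and immediate early lists too. None of the 10 lists had a gene that passed between days among libraries labelled anti-Gr1 with all 12 libraries.

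**Figure D5:**
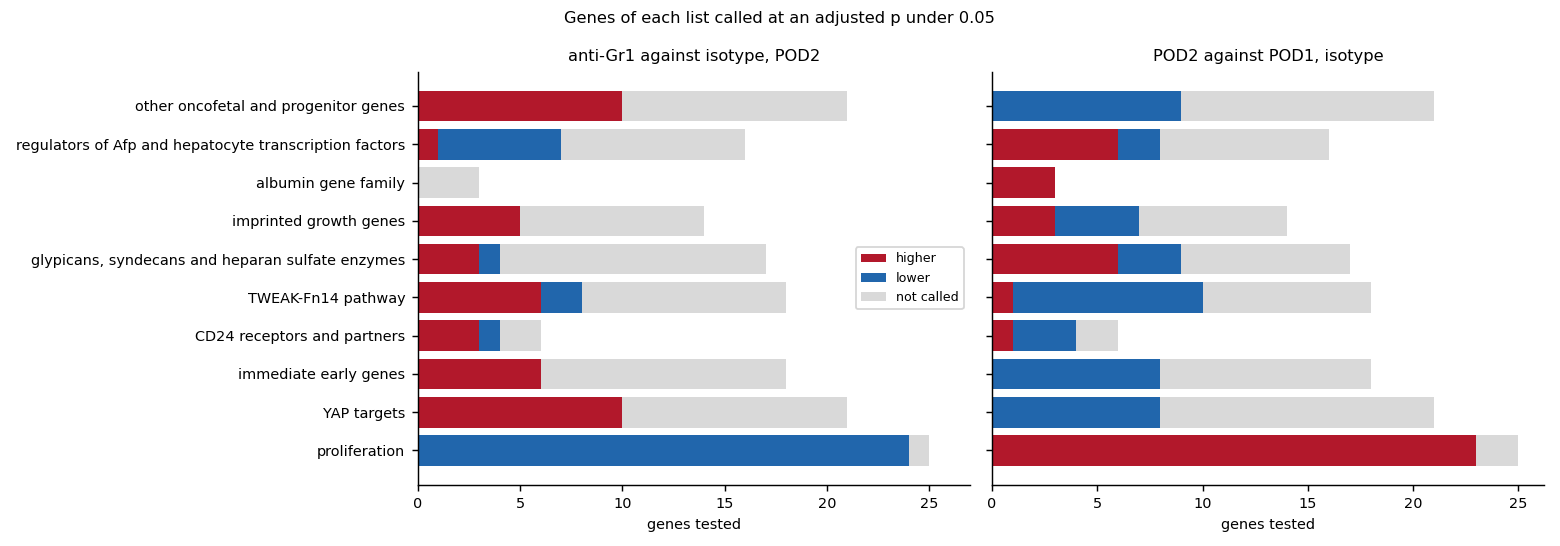
Number of genes tested (x axis) in each of 10 lists (y axis) that were higher (red), lower (blue) or not called (grey) at an adjusted p under 0.05 between antibodies at POD2 (left) and between days under isotype (right). The proliferation list has 24 of 25 genes lower on the left and 23 higher on the right, and the oncofetal list has 10 of 21 higher on the left and 9 lower on the right. Of all genes, 41.9% were called on the left and 46.4% on the right, in either direction.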

How the data were processed

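The deposited table holds raw counts of reads per gene as the authors made them; all values were whole and all 12 columns were matched to samples by the labels. Cutadapt, STAR, HTSeq and DESeq2 and the build GRCm38 are named in the submitters' processing notes; no source used here gives their versions, the annotation or the strandedness. Coordinates come from GENCODE release M21 (GRCm38), which held 18208 of the 18227 identifiers.

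Testing used edgeR 4.0.16 (R 4.3.3): filterByExpr, TMM scaling, a robust quasi-likelihood fit of 1 mean per group to all 12 libraries, and Benjamini-Hochberg adjustment over the 15294 genes left. Each SE is the size of the log2 change over the square root of F. The steps were tested on simulated data. Alternatives were DESeq2 1.42.0, other scalings, no filter, the groups compared alone, the replicate number as a block, near-identical libraries summed or left out, and each library left out. Named genes are the 5 genes, up to 4 per list by smallest p, the 5 most alike per gene, and Ly6g, Alb and Zhx2; Afm, Gc, Gpc4, Tnfsf12, Dlk1, Siglecg and other genes named were chosen after their values were seen. The 5 genes, lists, motifs and tests were chosen with earlier results of these data known. Lists are described by counts and medians, with no test. Some genes that the rule names are not reported here.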

Additional observations from a re-analysis of the deposited data

Results flagged for a closer look

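The antibody effect differed between the days for 2 of the 5 genes in a test of the difference itself, which 16.6% of all genes passed. For Afp the log2 effect of POD2 minus that of POD1 was -2.30 ± 0.40 (edgeR adjusted p = 0.00548), from a lower level in the libraries labelled anti-Gr1 in 3 of 3 libraries at POD2 and overlapping groups at POD1. For Gpc3 it was 1.94 ± 0.44 (edgeR adjusted p = 0.0151), with the libraries labelled anti-Gr1 all above isotype at POD2 and all below it at POD1. At POD2 the Gpc3 gap was only from 10.9 to 10.7 CPM. Replicates 1 and 2 of each antibody were near-identical at POD2. With near-identical pairs summed and the cross-day pair left out, neither difference passed, at -2.01 for Afp (edgeR adjusted p = 0.174) and 2.31 for Gpc3 (adjusted p = 0.072).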

How the results depend on the processing

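Counts were low for Afp, with 27 to 59 in 9 of the 12 libraries, and for H19, with 25 in its lowest, and n was 2 or 3 distinct libraries a group. Over the fits of the 5 genes and of the counts of genes called, 586 alternative values kept their direction and side of the threshold, 30 were weaker, 28 stronger and 10 turned sign. Same-numbered libraries deviated from their group means with correlations of -0.29 to 0.36, so the numbers do not pair the libraries; with the replicate block, Tnfrsf12a between isotype days passed (0.76, edgeR adjusted p = 0.0422) and genes called between antibodies at POD1 were 298, against 525. Genes called at POD1 were 311 without scaling, 1323 with DESeq2, 52 with the compared groups alone, 115 with pairs summed, 2301 without the cross-day pair and 793 with both changes; at POD2 3960 with pairs summed and 1650 with both, against 6404; for the difference between days 877 and 76, against 2539; for days under the label anti-Gr1 41 with DESeq2, 2564 without the cross-day pair and 545 with both, against 0. Without scaling the median log2 change of all genes moved to -0.14 at POD1, 0.44 at POD2 and -0.66 between isotype days, the calls at POD2 to 4994 higher and 1103 lower (3183 and 3221 with scaling) and those between isotype days to 978 and 7497 (3514 and 3580); Cd24a then passed at 1.61 and -1.75, and H19 turned to -0.10 between isotype days. Tnfrsf12a passed between isotype days at 0.71 with DESeq2, 0.68 with the compared groups alone and 0.74 without the cross-day pair, but not with pairs summed or both changes (edgeR adjusted p = 0.157 and 0.064), and its difference between days passed at -1.23 with DESeq2 and -1.32 without that pair, but not with pairs summed or both changes (0.177 and 0.219). With pairs summed Gpc3 missed the threshold at 1.08 (POD2) and 1.88 (difference). Without the cross-day pair Gpc3 passed at -0.86 (POD1) and 1.21 (days under the label anti-Gr1), though not with both changes (adjusted p by edgeR 0.0994 and 0.106), while Tnfrsf12a at POD1 (0.13) and H19 at POD2 (0.072) turned sign; with both changes these were 0.13 and 0.19, and Tnfrsf12a at POD2 (-1.22) and the differences of Afp (-2.01) and Gpc3 (2.31) missed. Leaving out each library gave, at POD2, 0.93 to 1.43 for Gpc3, 0.81 to 1.81 for Cd24a and -0.81 to 0.075 for H19; at POD1 -0.62 to 0.13 for Tnfrsf12a, -1.89 to -0.55 for H19 and 0.070 to 1.19 for Cd24a; between isotype days -1.16 to -0.98 for Gpc3, -1.71 to -0.27 for Cd24a and 0.59 to 0.80 for Tnfrsf12a; under the label anti-Gr1 -0.74 to 0.0043 for Tnfrsf12a; and for the difference -0.12 to 1.36 for Cd24a and -1.48 to -0.74 for Tnfrsf12a. Genes called then ranged from 124 to 2407 at POD1, 1420 to 4187 for the difference and 0 to 2900 for days under the label anti-Gr1. The difference between days uses all groups, so it has no fit on the compared groups alone. Causes were not tested.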
